A study of Mus musculus with 39 samples.

Results

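The glutathione peroxidases Gpx1, Gpx2, Gpx3, Gpx4, Gpx7 and Gpx8 and the superoxide dismutases Sod1, Sod2 and Sod3 were measured in mouse lung after permethrin or isoniazid in the diet. These 9 genes were taken as a family from 18193 genes with a probe set of their symbol alone, and the brightest such probe set, by mean log2 signal over the 39 arrays, stood for each gene. All 9 passed the filter on dim probe sets and were among the 13020 genes tested. Permethrin is a pyrethroid insecticide, and isoniazid is an antituberculosis drug that served as the positive control for tumour induction. The mice were females of the outbred stock Crlj:CD1(ICR), carried no engineered allele, and ate powdered diet. For 7 or 14 days the diet held permethrin at 10000 ppm, permethrin at 5000 ppm, isoniazid at 2500 ppm, or neither compound (control). The 7-day animals were 11 weeks old and the 14-day animals 12 weeks old, and age therefore cannot be told apart from duration. Each group held 5 animals on separate arrays, except permethrin 10000 ppm for 14 days with 4.

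Superoxide dismutases turn superoxide into hydrogen peroxide and oxygen, and glutathione peroxidases reduce hydrogen peroxide and lipid hydroperoxides at the expense of glutathione. Gpx1 to Gpx4 carry selenocysteine in the active site, whereas Gpx7 and Gpx8 use cysteine and reside in the endoplasmic reticulum. In lung, Sod3 guards the extracellular matrix and vessel walls, and Gpx2 belongs to the epithelial enzymes that the transcription factor Nrf2 is known to induce.

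Promoter sequence was compared first, because a single member of the family responded to treatment. RefSeq windows on build GRCm38.p6, reaching from 250 bases before to 50 bases after each annotated start, were found for 8 of the 9 members (11 windows). The 250 bases before the start are shown 5′ to 3′ for Gpx2, the member that responded, and for Gpx1, its closest selenium-dependent cytosolic relative, with CG dinucleotides in capitals. Gpx2 lies on the minus strand at chr12:76795555-76795804, and Gpx1 on the plus strand at chr9:108338830-108339079.
Gpx2: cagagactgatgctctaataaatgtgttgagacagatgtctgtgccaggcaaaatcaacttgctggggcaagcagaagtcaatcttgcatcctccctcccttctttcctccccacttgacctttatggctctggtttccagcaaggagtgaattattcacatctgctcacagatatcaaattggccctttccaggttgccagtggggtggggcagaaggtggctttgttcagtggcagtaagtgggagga
Gpx1: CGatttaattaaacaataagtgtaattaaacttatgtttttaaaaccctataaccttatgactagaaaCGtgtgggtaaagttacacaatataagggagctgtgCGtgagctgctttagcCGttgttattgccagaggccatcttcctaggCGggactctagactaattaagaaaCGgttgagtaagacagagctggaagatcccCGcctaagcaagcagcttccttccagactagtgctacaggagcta
The stretch of Gpx2 holds 0 CG dinucleotides and that of Gpx1 holds 7. Over the whole window of 300 bases Gpx2 also has 0, and 5.43% of the 32851 RefSeq windows have as few. The other member windows hold 3 to 34 CG dinucleotides, and the median over all windows is 7. The GC content of the Gpx2 window is 48.3%.

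The same windows were searched on both strands for the core of the antioxidant response element, the DNA element of Nrf2, spelled TGACNNNGC, or GCNNNGTCA on the other strand. It occurs in 12.4% of all windows, and 1 of the 11 member windows holds it, that of Sod1. The match begins at position -56 from the start and is shown in capitals with 10 bases on either side, on the plus strand at chr16:90220696-90220724.
Sod1: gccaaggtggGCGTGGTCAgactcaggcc
The windows of Gpx2 and of the genes whose pattern is most like it, Gsta2, Nqo1 and Cbr3, do not contain these letters. DNA outside the windows was not searched, so the search cannot show whether a gene lacks the element. A match describes letters in this window and no binding was measured.

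Gpx2 rose with permethrin at both doses and both times, by 2.47-fold to 3.15-fold, and the isoniazid groups overlapped the controls without passing the test. It was the only member called in the comparisons of treatments, in limma's moderated test with Benjamini-Hochberg adjustment over all genes tested (threshold 0.05). None of the other 8 members had an unadjusted p under 0.05 in any of the 14 comparisons, where 1.99% to 9.15% of all genes had one. Values below are normalized signals in linear units, and fold changes come from the model on log2 signals.

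**Figure D1:**
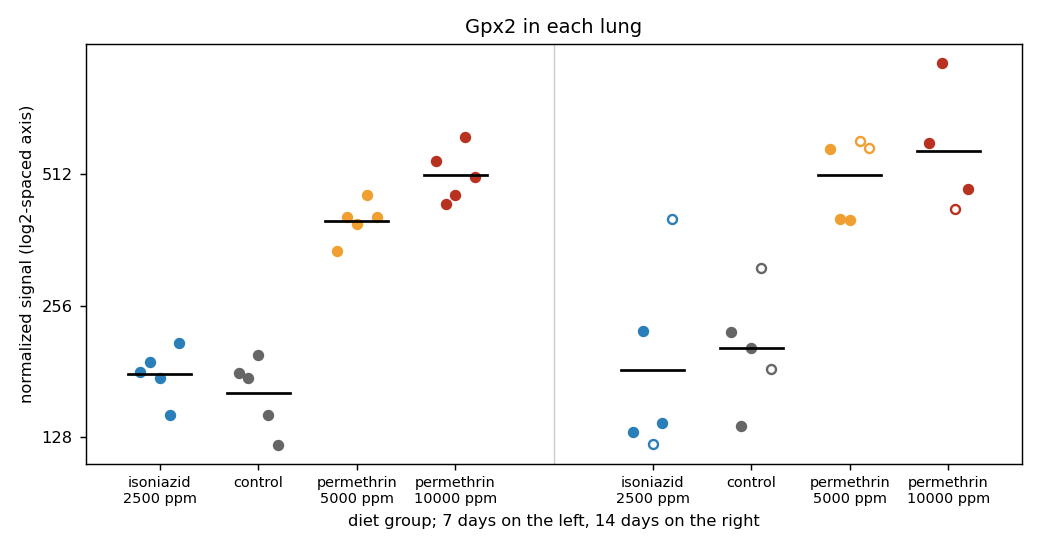
Normalized Gpx2 signal of each mouse (log axis) by treatment and duration; points are animals, open symbols are arrays whose Gapdh 3' to 5' log2 ratio is above 0.7, and black lines are group means of the log2 signal. The permethrin animals lie between 341 and 916, the control animals between 123 and 313.

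After 7 days at 10000 ppm, Gpx2 had signals of 546, 437, 459, 621 and 504, against 180, 175, 197, 144 and 123 in the controls. The lowest permethrin animal was above the highest control. The log2 fold change was 1.66 (SE 0.23), a 3.15-fold rise with a 95% confidence interval of 2.28 to 4.37 (limma adjusted p = 2.64e-05, n = 5 and 5). Gpx2 was 1 of the 31 genes called, which is 0.238% of those tested, and 1 of the 9 members. At 5000 ppm the signals were 341, 407, 394, 457 and 408, again all above the controls. The rise was 2.47-fold (log2 1.31, SE 0.23, limma adjusted p = 0.00397, n = 5 and 5), with 0.0922% of genes called. With isoniazid for 7 days the signals were 181, 190, 175, 144 and 211, which overlap the controls. The log2 fold change was 0.15 (SE 0.23, limma adjusted p = 0.981), and 0.0461% of genes were called. Its confidence interval in fold, 0.799 to 1.53, bounds what a group of this size leaves undetected.

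After 14 days at 10000 ppm, Gpx2 had signals of 602, 916, 425 and 471, against 223, 136, 205, 313 and 183 in the controls. The groups did not overlap, and animal 2 of the permethrin group was the highest of all 39. The rise was 2.82-fold (log2 1.5, SE 0.25, interval in fold 2.0 to 3.99, limma adjusted p = 0.000606, n = 4 and 5), with 0.215% of genes called. The call was lost when only those 2 groups entered the model (log2 1.5, adjusted p = 0.0878). At 5000 ppm the signals were 583, 405, 402, 607 and 587, all above the controls. The rise was 2.49-fold (log2 1.31, SE 0.23, limma adjusted p = 0.00361, n = 5 and 5), with 0.131% of genes called. Adding brown fat, cardiac and liver scores as covariates brought it to a log2 of 1.10 with an adjusted p of 0.212. With isoniazid for 14 days the signals were 131, 224, 124, 138 and 403. Replicate 5 alone was above every control, and it also passed the lowest 5000 ppm animal. The log2 fold change was -0.16 (SE 0.23, limma adjusted p = 0.976), and 0.0307% of genes were called.

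Over both times, Gpx2 was 2.98-fold higher at 10000 ppm than in controls (log2 1.58, SE 0.17, limma adjusted p = 4.08e-08, 9 of 9 animals above the control mean, 0.499% of genes called). At 5000 ppm it was 2.48-fold higher (log2 1.31, SE 0.16, limma adjusted p = 3.15e-06, 10 of 10 animals, 0.223% called). With isoniazid the log2 fold change was -0.01 (SE 0.16, limma adjusted p = 0.994, 4 of 10 animals above the control mean, 0.392% called). The 10000 ppm animals were also 3.0-fold above the isoniazid animals (log2 1.58, SE 0.17, limma adjusted p = 3.95e-08, 0.353% called), and these comparisons share animals. Between the doses, 10000 ppm was 1.20-fold above 5000 ppm with an interval of 0.948 to 1.53 (log2 0.27, SE 0.17, limma adjusted p = 0.999), so a difference between the doses did not pass the test. In that comparison 0.00768% of genes were called. The change of the effect between 14 and 7 days had log2 values of -0.16 (SE 0.34) at 10000 ppm, 0.01 (SE 0.33) at 5000 ppm and -0.31 (SE 0.33) with isoniazid. No gene was called in these 3 comparisons (0% of those tested), whereas 293, 370 and 384 genes had an unadjusted p under 0.05. Ordered by group mean of the log2 signal, the groups ran from permethrin 10000 ppm at 14 days, through 10000 ppm at 7 days, 5000 ppm at 14 days and 5000 ppm at 7 days, to control at 14 days, isoniazid at 14 days, isoniazid at 7 days and control at 7 days. Neighbours within the first 4 and within the last 4 overlapped in their animals.

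In these whole-lung samples, fewer cells of a type and less RNA per cell cannot be told apart, in either direction. Of the 8 club cell markers, the genes of the airway secretory cells, 1 was called with permethrin in 5 of the 6 comparisons of a dose with controls. It was the retinaldehyde dehydrogenase Aldh1a1, with a log2 fold change of 0.28 at 10000 ppm for 7 days (limma adjusted p = 0.00508). The summed signal of the 8 ran from 37015 to 40612 in the 10000 ppm group and from 36279 to 39774 in the controls at 7 days. At 14 days it ran from 38819 to 41552 at 10000 ppm, 39426 to 40445 at 5000 ppm, 38526 to 40520 with isoniazid and 35013 to 37992 in controls, so the isoniazid animals also lay above the controls. The main club cell secretory protein Scgb1a1 had a log2 fold change of -0.01 at 10000 ppm for 7 days. The part of this marker list in the Gpx2 result was not tested.

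The cytosolic and mitochondrial peroxidase Gpx1, which removes hydrogen peroxide, varied little. Its signal spanned 2124 to 3538 over all animals, and the SD within groups was 0.13 on the log2 scale, against a median of 0.26 over all genes tested. Group means ran from 2978 ± 359 at 10000 ppm for 14 days (SD, n = 4) to 2364 ± 108 in the 7-day controls (SD, n = 5). Over both times its log2 fold change was 0.11 (SE 0.06, limma adjusted p = 0.817) at 10000 ppm, 0.06 (SE 0.06) at 5000 ppm and 0.09 (SE 0.06) with isoniazid. The plasma peroxidase Gpx3, secreted from kidney and other tissues, spanned 2134 to 3194 with a within-group SD of 0.12. Its group means ran from 2853 ± 331 with isoniazid for 14 days to 2303 ± 203 at 5000 ppm for 7 days (SD, n = 5 each). Of all genes tested, 4.50% and 4.23% had a smaller spread than these 2.

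Gpx4 reduces lipid hydroperoxides in membranes and protects cells from ferroptosis. Its group means ran from 2503 ± 233 at 10000 ppm for 14 days (SD, n = 4) to 1813 ± 70.6 in the 7-day controls (SD, n = 5). After 7 days at 10000 ppm it had signals of 1927, 2009, 2234, 1953 and 2103, against 1885, 1749, 1888, 1802 and 1743 in the controls. The groups did not overlap, yet the log2 fold change of 0.17 (SE 0.11) had an unadjusted p of 0.136 and an adjusted p of 0.999996 in limma, which pools the spread over all groups. With Gpx2, 2 of the 9 members had ranges that did not overlap in that comparison, where 1.05% of all genes did. In the other comparisons with controls Gpx2 was the member without overlap for permethrin, and no member was without overlap for isoniazid. The share of all genes was 0.745% and 1.94% at 7 days for 5000 ppm and isoniazid. At 14 days it was 1.87%, 0.968% and 0.584% for 10000 ppm, 5000 ppm and isoniazid. After 14 days at 10000 ppm Gpx4 had signals of 2416, 2817, 2514 and 2265, against 2263, 2032, 2152, 2574 and 2514 in the controls, and the groups overlapped. The second probe set of Gpx4 had log2 fold changes of 0.44 at 7 days and -0.16 at 14 days, with adjusted p-values of 0.999996 and 0.989.

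The endoplasmic reticulum peroxidases Gpx7 and Gpx8, which act in oxidative protein folding, spanned 103 to 188 and 252 to 405. Their log2 fold changes against controls lay between -0.03 and 0.14 for Gpx7 and between -0.06 and 0.17 for Gpx8 in the 6 comparisons at a single time. Their within-group SDs were 0.20 and 0.17. Group means of Gpx7 ran from 155 ± 4.94 at 5000 ppm for 14 days to 141 ± 26.8 with isoniazid for 7 days (SD, n = 5 each), a difference smaller than the larger SD. Those of Gpx8 ran from 336 ± 43.4 at 10000 ppm for 14 days (SD, n = 4) to 296 ± 8.40 in the 14-day controls (SD, n = 5).

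**Figure D2:**
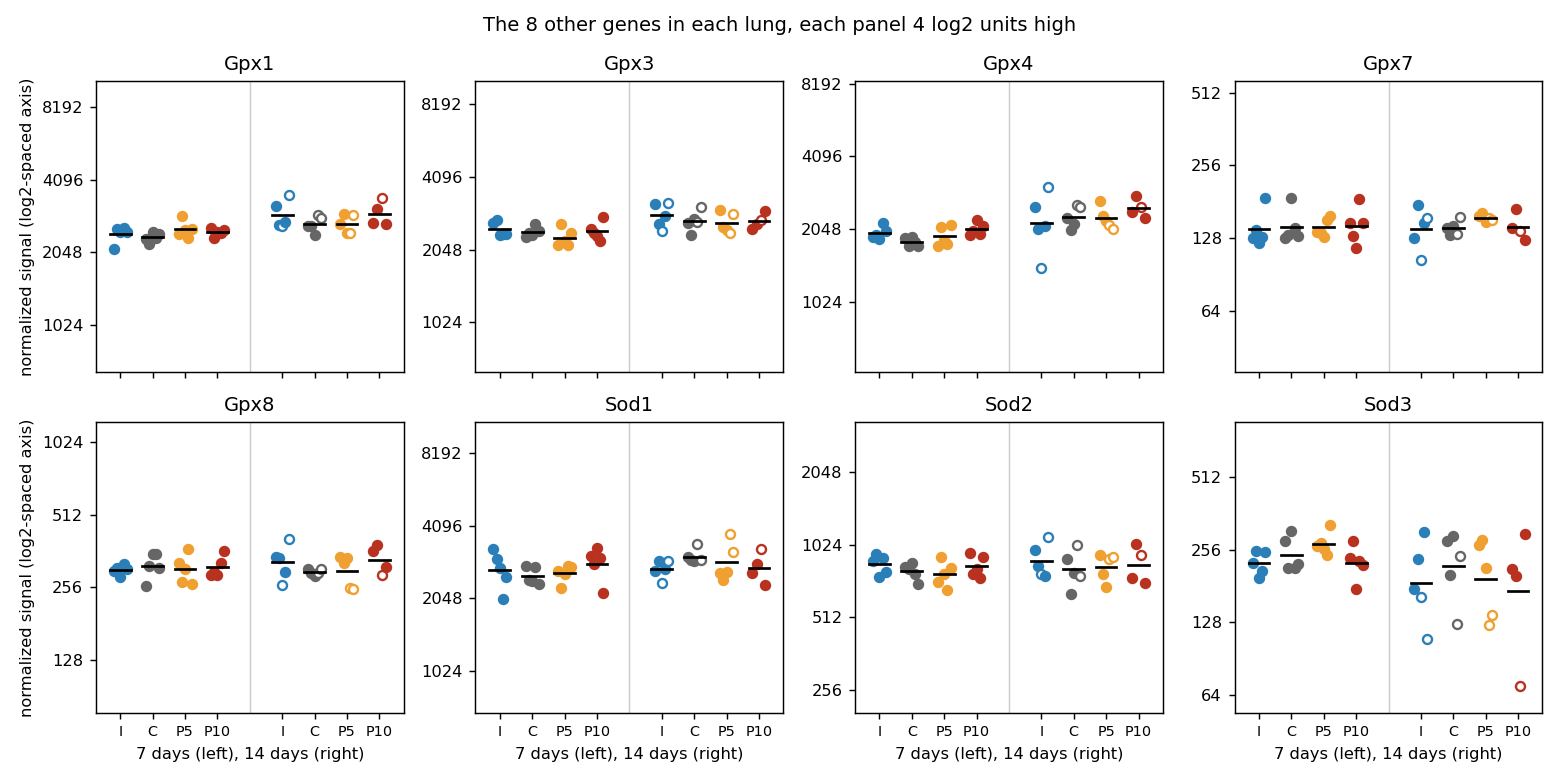
Normalized signal (log axis, each panel 4 log2 units high) of the other 8 members in every animal, with group means as lines; I is isoniazid 2500 ppm, C control, P5 and P10 permethrin 5000 and 10000 ppm, at 7 and 14 days. Sod3 has single animals far below the rest at 14 days, the lowest at 69.9.

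Among the dismutases, cytosolic Sod1, which holds copper and zinc, spanned 2035 to 3772. Its highest and lowest group means were both of controls, 3061 ± 219 at 14 days and 2552 ± 207 at 7 days (SD, n = 5 each). Its log2 fold change was 0.16 (SE 0.12) at 10000 ppm for 7 days and -0.15 at 14 days, and the change between the times, -0.31 (SE 0.17), had an unadjusted p of 0.0708 (limma adjusted p = 0.9998). The sign at 14 days depended on the probe set. In order of brightness, the other Sod1 probe sets above the filter had 0.10, 0.13 and 0.02 at 10000 ppm for 7 days. For 14 days they had 0.14, 0.17 and -0.50, and 1 below the filter had 0.91 and 1.56 at the 2 times. None of these was called. Mitochondrial Sod2, the manganese enzyme, spanned 638 to 1099, with group means from 888 ± 145 with isoniazid for 14 days to 777 ± 91.9 at 5000 ppm for 7 days (SD, n = 5 each). Over both times its log2 fold change was 0.07 (SE 0.09) at 10000 ppm, 0.00 at 5000 ppm and 0.11 (SE 0.08) with isoniazid.

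Extracellular Sod3 had the widest spread within groups of the 9 members (SD 0.48 log2, with Gpx2 next at 0.39). After 14 days at 10000 ppm its signals were 212, 198, 69.9 and 297, against 279, 200, 292, 126 and 241 in the controls. The groups overlapped, and the log2 fold change of -0.34 was not called (limma adjusted p = 0.976). Leaving out replicate 3 of that permethrin group brought it to 0.09. At 5000 ppm for 14 days the signals were 267, 280, 214, 125 and 137, and with isoniazid they were 176, 233, 163, 303 and 109. At 7 days all 20 animals lay between 175 and 322. The second, dimmer probe set of Sod3 went the other way at 10000 ppm without being called. Its log2 fold changes were 0.51 at 14 days and 0.18 at 7 days, against -0.34 and -0.12 for the probe set used. For the Sod3 probe set used, the mean of each treatment was lower at 14 than at 7 days in 4 of 4 treatments, controls included, whereas for Gpx1, Gpx2, Gpx3, Gpx4 and Sod2 it was higher in 4 of 4. This difference between the times was not tested, and the share of all genes that moved one way was not computed. All 7 arrays of high Gapdh 3' to 5' ratio were of 14 days, and each 14-day group also held arrays of lower ratio. Sod3 ran from 69.9 to 241 on those 7 arrays and from 176 to 303 on the other 14-day arrays. The part of RNA quality in the difference between the times was not tested.

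**Figure D3:**
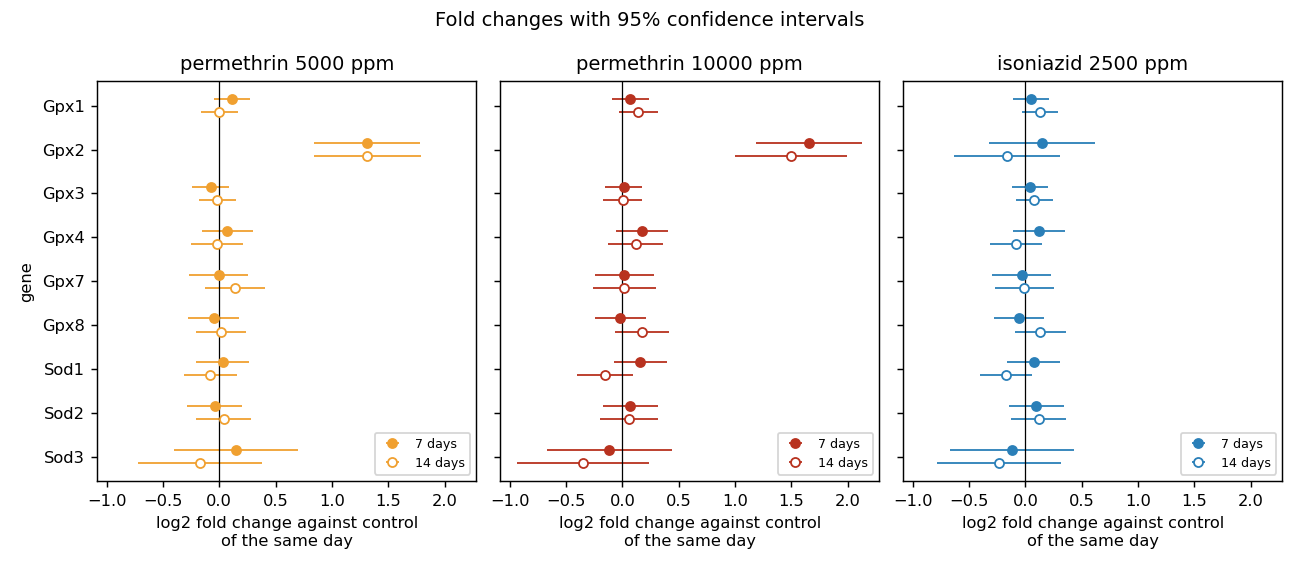
Log2 fold change of each member against the control of the same time, with 95% confidence intervals from the limma model; filled symbols are 7 days, open symbols 14 days. The intervals of Gpx2 with permethrin begin at 0.84 or higher, and the interval of each other member includes 0.

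Over the 6 comparisons with controls at a single time, log2 fold changes of the other 8 members lay between -0.34 (Sod3, 10000 ppm for 14 days) and 0.17 (Gpx4, 10000 ppm for 7 days, and Gpx8, 10000 ppm for 14 days). The confidence intervals leave room for moderate effects. Taken over the 8 genes at 10000 ppm, they reached from 0.630-fold to 1.35-fold at 7 days and from 0.525-fold to 1.33-fold at 14 days. These bounds are set by Sod3 at their low end at both times. In the order of the 8 group means of log2 signal, the animals of neighbouring groups overlapped at all 7 steps for each of these 8 genes. For Gpx2 they overlapped at 6 of 7 steps, the exception being that between 5000 ppm at 7 days and control at 14 days. Sorting by mean places the closest groups side by side, and the share over all genes was not computed. These counts therefore only describe the values.

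RNA integrity differed between arrays and moved with several members. The log2 ratio of the 3' to the 5' control probe sets of Gapdh grows with degradation of the RNA. It exceeded 0.7 on 7 arrays, none of them from the 7-day groups: replicate 3 of permethrin 10000 ppm, replicates 4 and 5 of permethrin 5000 ppm, replicates 3 and 5 of isoniazid, and replicates 4 and 5 of the controls. Within groups, 4 of the 9 members were called for a slope on this ratio, where 18.8% of all genes were (log2 signal per unit of log2 ratio). Sod3 fell by 0.65 (SE 0.10, limma adjusted p = 3.76e-05). Sod2 rose by 0.24 (SE 0.05, adjusted p = 0.000938), Gpx1 by 0.12 (SE 0.04, adjusted p = 0.0234) and Gpx2 by 0.34 (SE 0.11, adjusted p = 0.0324). The probe sets of a gene differed: the second probe set of Sod3 had a slope of -2.19 (SE 0.20, adjusted p = 9.07e-10), and the other Sod2 probe sets had slopes of 0.11, -0.27 and -0.22. The second Gpx4 probe set had 0.37 (SE 0.11, limma adjusted p = 0.0199), against 0.09 (SE 0.06) for the probe set used. In the 20 arrays of 7 days alone, where the ratio reached 0.66, the slope of Sod3 was 0.26 (SE 0.19, adjusted p = 0.459) and no member was called, where 3.86% of all genes were. In the 19 arrays of 14 days it was -0.77 (SE 0.11, adjusted p = 0.000191), and 3 members and 15.7% of all genes were called. The 3 were Sod3, Sod2 (limma adjusted p = 0.0159) and Sod1 (adjusted p = 0.0254). Gpx1 (adjusted p = 0.0695) and Gpx2 (adjusted p = 0.0797) were not called there.

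**Figure D4:**
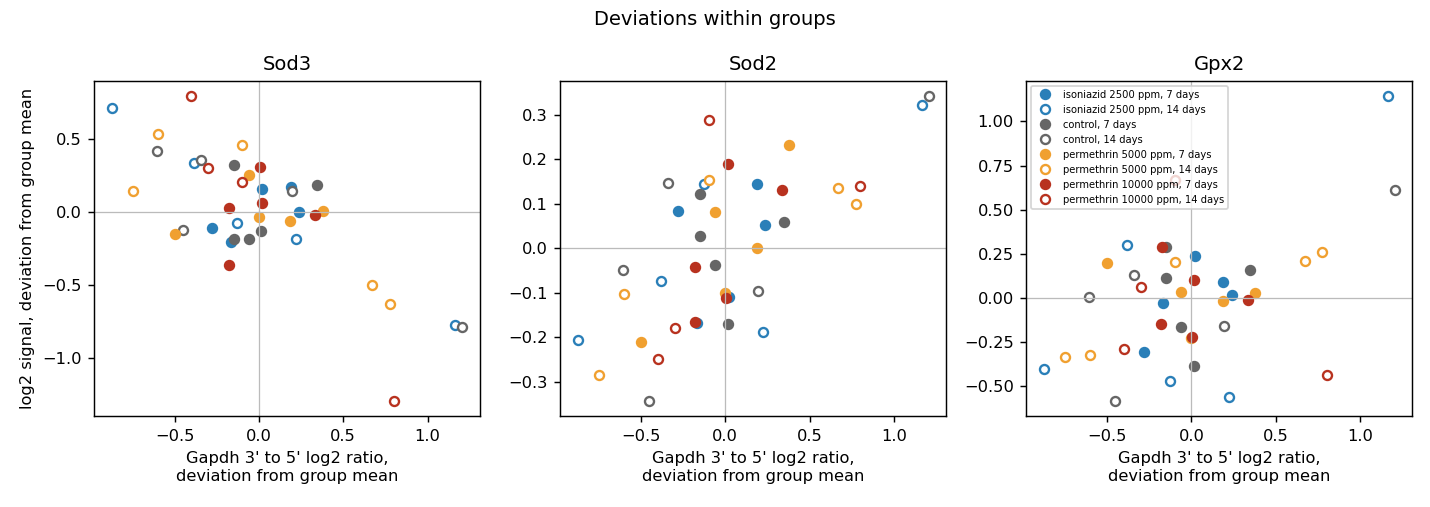
Deviation of log2 signal from the group mean against deviation of the Gapdh 3' to 5' log2 ratio from its group mean, for Sod3, Sod2 and Gpx2; filled symbols are 7 days, open symbols 14 days. Sod3 falls and Sod2 rises toward arrays of high ratio, which are all of 14 days.

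The highest Gpx2 signals outside the permethrin groups, 403 in replicate 5 of isoniazid at 14 days and 313 in replicate 4 of the controls at 14 days, were on arrays of high ratio (1.87 and 1.80). Without replicate 5 of that isoniazid group the slope of Gpx2 was 0.18 (adjusted p = 0.289), and without replicate 4 of the controls 0.30 (adjusted p = 0.133). Without the 7 arrays of high ratio the Gpx2 effect was as large, with log2 fold changes of 1.79 (limma adjusted p = 1.57e-05) at 10000 ppm and 1.31 (adjusted p = 0.00655) at 5000 ppm for 14 days. The difference between the doses was then 0.42 (unadjusted p = 0.0064, adjusted p = 0.9996), so it again did not pass the test.

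Lung samples can take along brown fat, heart muscle and liver, and scores for these tissues were set against the members. No member was called for a slope on the brown fat score (3.65% of genes called), the cardiac score (3.11%) or the liver score (0.269%), while 4, 3 and 0 of 9 had an unadjusted p under 0.05, as did 15.5%, 15.4% and 6.77% of all genes. Sod2 came nearest, with 0.10 per unit of brown fat score (adjusted p = 0.0712) and 0.14 per unit of cardiac score (adjusted p = 0.0924). The mean cardiac score at 14 days was 8.94 (SD 1.3, n = 4) at 10000 ppm and 8.91 (SD 0.49, n = 5) at 5000 ppm. It was 8.98 (SD 0.79, n = 5) with isoniazid and 7.76 (SD 0.80, n = 5) in controls. The mean brown fat scores were 6.80, 6.02, 6.30 and 5.15 in the same groups, so the isoniazid means also lay above those of the controls.

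The genes around the family were read from lists chosen with earlier results of these data known, so their counts describe and do not test the lists. Over both times, 6 of 9 tested genes that supply glutathione and NADPH were called higher at 10000 ppm, 4 at 5000 ppm and 0 with isoniazid, and medians were 0.66, 0.38 and 0.12 log2, with medians over all genes of 0.01, -0.01 and 0.01. Of all genes tested, 0.453%, 0.223% and 0.223% were called higher in these comparisons. Glutathione synthetase Gss rose 2.0-fold (limma adjusted p = 1.93e-07) at 10000 ppm, and the glutamate-cysteine ligase subunits Gclc and Gclm, which make the first step of glutathione synthesis, rose 2.35-fold and 1.85-fold. Phosphogluconate dehydrogenase Pgd, a source of NADPH, rose 1.83-fold, glutathione reductase Gsr 1.58-fold and transaldolase Taldo1 1.43-fold. At a single time, 5 were called at 10000 ppm for 7 days and 3 for 14 days, and 1 at 5000 ppm at each time. With tissue scores as covariates the counts for 14 days were 0 at both doses, and at 5000 ppm for 7 days the count ran from 0 to 4 over the alternatives. Without replicate 2 of the 10000 ppm group, 1 was called at 10000 ppm for 14 days. At 5000 ppm for 14 days the count was also 0 with median centring, with only the compared groups in the model and without the arrays of high Gapdh ratio. It was 0 as well without replicate 2 or 3 of the 14-day controls or replicate 1, 4 or 5 of 5000 ppm at 14 days, and at 7 days without replicate 1, 4 or 5 of the controls or replicate 4 or 5 of 5000 ppm. Over both times, 2 were called at 5000 ppm without the arrays of high ratio.

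A further list held 9 genes of peroxide removal outside the family, with repair enzymes and reductases included. Of these, 2 rose at both doses and both times, a repair enzyme and a reductase, and none was called with isoniazid. They were sulfiredoxin Srxn1, which repairs overoxidized peroxiredoxins, at 3.12-fold over both times (limma adjusted p = 6.71e-14), and thioredoxin reductase Txnrd1 at 2.64-fold (adjusted p = 1.36e-12), both at 10000 ppm. Catalase and the 3 peroxiredoxins tested were not called. Cat, which splits hydrogen peroxide in peroxisomes, had a log2 fold change of 0.13 at 10000 ppm over both times (adjusted p = 0.917), and Prdx4 had 0.14 (adjusted p = 0.831). With the mean of all probe sets of a gene, counts of this list fell to 1 and 0 at 10000 ppm and to 0 and 0 at 5000 ppm (7 and 14 days), and to 1 at 5000 ppm over both times.

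Of 13 tested Nrf2 targets outside the family, 12 were called higher at 10000 ppm for 7 days and 10 for 14 days. At 5000 ppm 7 were called at each time, and with isoniazid none. Of all genes tested, 0.23% and 0.207% were called higher at 10000 ppm for 7 and 14 days, and 0.0922% and 0.123% at 5000 ppm. Over both times the glutathione transferase Gsta2 rose 5.18-fold, the aldehyde dehydrogenase Aldh3a1 5.70-fold and the quinone reductase Nqo1 3.53-fold at 10000 ppm, and the heme oxygenase Hmox1 rose 1.56-fold. The ferritin heavy chain Fth1 was the member not called at 10000 ppm for 7 days. When arrays were centred on their median, 4 rather than 7 were called at 5000 ppm at each time. With only the compared groups in the model, 5 were called at 10000 ppm for 14 days, and with tissue scores as covariates 2 at 5000 ppm for 14 days. Without replicate 1 of the 5000 ppm group or replicate 2 of the controls, 4 were called at 5000 ppm for 14 days. With isoniazid over both times, 1 was called without replicate 3 of isoniazid at 14 days.

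Genes of selenium, copper and manganese handling were listed as well, because these enzymes hold selenium or metals. Of 8 genes listed for selenoprotein synthesis, selenium transport or selenium binding, none was called with permethrin. At 10000 ppm over both times, however, 1 was called under 4 of 12 alternatives, namely the mean of all probe sets, the replicate block, array weights and the fit without the arrays of high Gapdh ratio. It was also 1 without replicate 4 of the 14-day controls and without replicate 4 of 10000 ppm at 14 days. In this list 1 gene was called with isoniazid at 7 days and over both times, the selenium-binding protein Selenbp1 (1.38-fold and 1.28-fold, limma adjusted p = 0.00955 and 0.00154). Of all genes tested, 0.0307% and 0.223% were called higher with isoniazid at 7 days and over both times. Of 8 copper and manganese handling genes, none was called with permethrin, and 2 were called with isoniazid over both times, the copper importer Slc31a1 (1.29-fold, adjusted p = 0.0265) and the copper pump Atp7b (1.35-fold, adjusted p = 0.0302). The Selenbp1 call at 7 days was lost with deposited scaling, median centring and tissue scores as covariates, and without replicate 1 of the 7-day controls, or replicate 3 or 4 of isoniazid at 7 days. The count of 2 copper genes fell to 0 with median centring, tissue scores, only the compared groups in the model, and without the arrays of high Gapdh ratio, and to 1 with deposited scaling and the mean of all probe sets. Leaving out single animals moved it in 12 of 20 cases. It was 0 without replicate 1 or 3 of the 7-day controls, replicate 2, 3 or 4 of isoniazid at 7 days, replicate 5 of the 14-day controls or replicate 5 of isoniazid at 14 days. It was 1 without replicate 2 or 4 of the 7-day controls or replicate 1, 3 or 4 of the 14-day controls. At 7 days 1 copper gene was called with array weights. Of 7 sources of superoxide, among them the phagocyte oxidase subunit Cybb, and of 7 inflammatory genes regulated by NF-kB, none was called with either compound. The acute-phase protein Saa3 was 3.77-fold higher with isoniazid than in controls at 7 days without passing the test (limma adjusted p = 0.125). With array weights, and without replicate 5 of isoniazid at 7 days, 1 of the inflammatory genes was called there.

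By Pearson correlation over the 39 arrays, given as a description, the genes whose pattern was most like that of Gpx2 were Gsta2 (r = 0.94), Nqo1 (r = 0.92) and the carbonyl reductase Cbr3 (r = 0.92). Over the 8 group means the values were 0.97, 0.99 and 0.96. After group means were removed they were 0.76, 0.60 and 0.71, and arrays share normalization and RNA quality. For Sod3 the nearest were Aplp2 (r = 0.85), Ptprm (0.80) and the matrix proteoglycan Prelp (0.80), and for Sod2 they were Grhpr (0.75), Crat (0.75) and the respiratory chain subunit Ndufb7 (0.74). Gpx1 was nearest to Ube2j2 (0.81), Arih2 (0.77) and H2az1 (0.77), and Gpx3 to Dctn2 (0.82), Eng (0.79) and Pnpla6 (0.75). Gpx4 was nearest to Ddrgk1 (0.90), Mrps16 (0.87) and Nhp2 (0.86). Gpx7 was nearest to Mipep (0.65), Lrrc51 (0.60) and Ndufs5 (0.60), Gpx8 to Snx7 (0.71), Mrpl50 (0.71) and Nudt2 (0.68), and Sod1 to Ube2d2a (0.80), Eny2 (0.79) and Btf3 (0.78).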

How the data were processed

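Lungs of 39 mice were measured on 1 Affymetrix array each, with replicate numbers and groups taken from the sample titles. The labels' protocols name a 3' priming kit for the biotin-labelled cRNA. The authors deposited linear signal intensities, for which the submitters' processing notes name MAS5 (version not given in the sources used here). They are scaled so that the trimmed mean of each array is 100.0. Array medians were 17.4 to 26.2. Of 45101 probe sets, 64 are controls, 34945 carry 1 symbol, 932 several and 9160 none, by the platform annotation, with symbols updated through gene IDs. The members have 18 probe sets. Correlations between arrays were 0.862 to 0.945, and none was a duplicate of another.

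Log2 signals were quantile normalized, and genes were tested where the mean log2 signal of their brightest probe set was at least 3.43 (signal 10.8, the upper 60% of probe sets), which left 13020. A model with 8 group means was fitted by limma 3.58.1 in R 4.3.3 with a mean-variance trend (the package data.table was version 1.17.8), and 14 comparisons were read from it, each adjusted by Benjamini-Hochberg with a threshold of 0.05. Tests are two-sided. Slopes on tissue scores and on the Gapdh ratio were fitted within groups. The steps were tested on simulated data. The number of arrays limits the precision, and detection calls were not used. The text names all 9 members, up to 6 called members of each other list with the smallest p, and for each member the 3 genes most like it. The 18 lists besides the members cover glutathione supply, other genes of peroxide removal with repair enzymes and reductases, selenium, metals, superoxide sources, Nrf2 targets, inflammation, and 11 cell or tissue marker sets. Besides the club cell result, the marker lists gave 1 call, the liver gene Serpina1c, which was lower with isoniazid over both times (log2 -2.91, limma adjusted p = 0.0132). No gene of the alveolar type 2, ciliated, basal and goblet, macrophage, neutrophil, smooth muscle, erythroid, brown fat or cardiac lists was called against controls. The members and lists were chosen with earlier results of these data known. Replicate numbers did not pair the animals. Alternatives were another scaling, pseudocount, filter, probe set rule, sample set, block, weights or covariates, and leaving out animals.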

Additional observations from a re-analysis of the deposited data

Results flagged for a closer look

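Of 72 groups of a member, 4 held an animal far from the others of its group, where chance alone flags about 1 in 20. Gpx1 was 2124 in replicate 1 of isoniazid at 7 days, where the others lay between 2489 and 2591. Gpx7 was 187.4 in replicate 5 of isoniazid at 7 days, with the others between 122 and 137. Gpx7 was 187.8 in replicate 3 of the controls at 7 days, with the others between 128 and 141. Sod1 was 3446 in replicate 4 of the controls at 14 days, with the others between 2921 and 3029, and the Gapdh 3' to 5' log2 ratio of that array was 1.80.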

How the results depend on the processing

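Gpx2 kept its direction with permethrin in every alternative run and was called in 22 of 22 at each dose for 7 days (log2 1.56 to 1.73 at 10000 ppm and 1.21 to 1.38 at 5000 ppm). For 14 days it was called in 20 of 21 at 10000 ppm (1.22 to 1.79) and 21 of 22 at 5000 ppm (1.10 to 1.47). The exceptions were 0 members called at 10000 ppm for 14 days with only the compared groups in the model, and 0 at 5000 ppm for 14 days with tissue scores as covariates. Gpx2 has 1 probe set, on which its result rests. The mean of all probe sets of a gene therefore left its signals unchanged and could not move its fold change. No other member was called against controls under any alternative. The replicate block changed no member's call against controls, though 1 gene of the selenium list was then called at 10000 ppm over both times. With it, the Gpx2 values were 1.66, 1.31, 1.53 and 1.31 for 10000 and 5000 ppm at 7 days and then at 14 days. Same-numbered animals had a mean correlation of deviations of 0.03 (-0.34 to 0.37).

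The slopes depended more on the setting. Members called for the brown fat score numbered 1 with deposited scaling (4.06% of all genes called). For the cardiac score they numbered 1 with deposited scaling (3.28% of all genes), 3 with median centring (8.13%), 1 with array weights (4.68%) and 1 without the arrays of high Gapdh ratio (3.2%). For the Gapdh ratio they numbered 1 with median centring (18.1%), 5 with deposited scaling (20%), 3 with the replicate block (16.1%) and 3 with array weights (16.5%). In subsets chosen after seeing the data, they numbered 0 in arrays of 7 days (3.86%) and 3 in those of 14 days (15.7%). Leaving out animals gave 0 to 1 for brown fat, 0 to 1 for cardiac, 2 to 5 for the Gapdh ratio and 0 for liver. The Sod2 slope on the Gapdh ratio was -0.0356 as a mean of all probe sets (adjusted p = 0.660), and at 7 days those of Gpx2 and Sod3 were -0.00535 and 0.264. The causes were not tested.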
